A study of Mus musculus with 12 samples.

Results

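The genes measured in mouse neurons after silencing of Dek were compared with those after a scrambled hairpin, family by family. Dek encodes an abundant nuclear protein that binds DNA and chromatin. The comparison took 6 of the 12 libraries of the study, 3 that received the hairpin against Dek (silencing) and 3 that received the scrambled hairpin, and 14232 of the 24100 genes in the table were expressed well enough to be tested. Cells of the entorhinal cortex (EC) came from C57BL/6J embryos at day 17 of gestation and were grown in Neurobasal with 2% B27. After 7 days in vitro they were transduced with AAV1-mCherry-U6-mDEK-shRNA or AAV1-mCherry-U6-scrmb-shRNA at 1e+10 genome copies per ml, and RNA was taken 4 days later. One hairpin sequence was used, and its U6 promoter is active in all cell types, so the libraries hold every transduced and untransduced cell of the well. The labels do not say whether the wells came from separate dissections, so the p-values measure the spread between wells, which may be technical. Another control, AAV1-hSyn1-mCherry-WPRE (empty vector, 3 libraries), carries no hairpin and drives mCherry from a neuronal promoter, and its values stand beside some results below.

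A short hairpin is cut into a guide RNA of about the length of its target, and the guide leads the silencing machinery to a matching mRNA. The 21 bases of Dek matched by the hairpin of the study's methods lie at chr13:47099377-47099397 (GRCm38/mm10, minus strand), in exon 6 of 11. They are shown with the run of 7 bases in capitals that is also counted in the 3′ untranslated regions (3′ UTRs) of other genes.
Dek target: cgaactcgtgAAGAGGAtctt

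That run was singled out with the values of these libraries known, so the counts of genes that carry it are a description. It was present on the sense strand of the annotated 3′ UTR of 23.9% of the 3936 lower genes, 10.6% of the 3547 higher genes and 13.9% of the 5984 genes that did not pass the test. The median log2 fold change (log2FC) of the 2152 genes with the run was −0.191, and that of the 11315 genes without it was 0.0248. The run pairing with bases 2 to 8 of a guide that starts at the end of the target, AGGATCT, was in 11.7% of lower and 10.7% of higher genes. Against the empty vector AGGATCT was in 13.6% of lower and 8.81% of higher genes, and AAGAGGA in 24.1% and 10.8%. For 8 genes that fell and are described below, the site nearest the stop codon is shown with 7 bases on each side and AAGAGGA in capitals.
Smarcc2 (chr10:128489401-128489421, plus strand): aggttttAAGAGGAattaaat
Ncl (chr1:86348460-86348480, minus strand): gaaatggAAGAGGAgcatgta
Polr2e (chr10:80036199-80036219, minus strand): aacaatgAAGAGGAacccaca
Gtf3a (chr5:146955421-146955441, plus strand): ccctcctAAGAGGAaacaaga
Chmp3 (chr6:71580237-71580257, plus strand): ccttggaAAGAGGAcatgcta
Dmtn (chr14:70602458-70602478, minus strand): acaggggAAGAGGAccagctg
Gnai3 (chr3:108107972-108107992, minus strand): cgtgtacAAGAGGAaagtcac
Usp4 (chr9:108391957-108391977, plus strand): ttatgagAAGAGGAaggaaag
Outside the capitals these sites differ from one another and from the Dek target. Smarcc2 holds 2 such sites and each of the other 7 genes holds 1. The part of these matches in any result below was not tested.

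Dek itself checked the labels. It lay at 35.4, 37 and 36.7 CPM (estimated counts per 1000000 of the library, after TMM scaling) in the scrambled libraries and at 7.81, 6.6 and 8.59 CPM in the silenced libraries (log2FC = −2.23, SE 0.10, adjusted p = 1.3e-08, edgeR). Depth was 15679567 to 17981481 estimated counts per silenced library and 17126962 to 17932126 per scrambled library. The summed level of 9 neuronal markers was 7617 to 8134 CPM in silencing and 8760 to 9169 CPM in scrambled libraries, of which 2 rose and 4 fell (3 and 2 with library size scaling). Of these, 1 rose and 2 fell without silencing replicate 2, and 1 rose and 3 fell without scrambled replicate 1 or 2. Of the 8 markers of excitatory neurons 1 rose and 1 fell (2 without scrambled replicate 1), and of the 7 of GABAergic neurons 3 rose and 1 fell (2 without silencing replicate 1). Markers of other cells were also present. The oligodendrocyte list summed to 81.3 to 89.5 CPM in silencing and 31.0 to 42.2 CPM in scrambled libraries (4 higher and 1 lower of 5 tested), and that of their precursors to 90.5 to 199 CPM against 62.5 to 111 CPM (3 higher and 0 lower of 5). The mural cell list summed to 25.2 to 35.1 CPM against 16.3 to 22.1 CPM (3 higher and 0 lower of 5). The astrocyte list ran from 491 to 857 CPM in silencing and from 534 to 830 CPM in scrambled libraries, with 0 and 0 of 8 called, and that of progenitors from 748 to 1434 CPM and 710 to 1228 CPM (1 higher and 0 lower of 8). The higher progenitor markers numbered 3 without silencing replicate 1 or scrambled replicate 3, 2 without scrambled replicate 1 and 0 without silencing replicate 2 or 3. Microglial markers (1 higher and 1 lower of 8) summed to 17.4 to 26.3 CPM over the 6 libraries, fibroblast markers (0 and 0 of 4) to 9.69 to 13.7 CPM and endothelial markers (0 and 0 of 1) to 1.52 to 3.07 CPM. The endothelial marker Cdh5 was at 0 in these 6 libraries, and Opalin of oligodendrocytes and Tmem119 and P2ry12 of microglia were at or near 0. In both groups the sums of the astrocyte, precursor and progenitor lists rose from replicate 1 to replicate 3. Number by number, silencing was higher for precursors and progenitors, and for astrocytes it was lower in replicate 1 only. The higher precursor markers numbered 5 without silencing replicate 1 or with a replicate block, and 1 without silencing replicate 2. Of the lists with none lower, 1 gene was lower for endothelial cells without scrambled replicate 3 and 1 for fibroblasts without silencing replicate 1. The empty vector libraries differed from the scrambled libraries in some of these sums. Excitatory markers summed to 572 to 620 CPM in the empty vector and 369 to 427 CPM in scrambled libraries. GABAergic markers summed to 2022 to 2074 and 2495 to 2625 CPM. Progenitor sums (497 to 711 and 710 to 1228 CPM) overlapped, as did neuronal sums. The part of these differences in values against the empty vector was not tested. In bulk RNA, fewer cells of a type and less RNA per cell cannot be told apart.

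Most genes tested differed between the hairpins. At an adjusted p below 0.05 in edgeR's quasi-likelihood test 7790 genes were called, 54.7% of those tested, with 3730 higher (26.2%) and 4060 lower (28.5%) in silencing. Scaling by library size in place of TMM gave 4793 higher and 3210 lower. Beyond a log2FC of 1 in either direction lay 1499 genes (10.5%), and in 61.9% of all genes tested the CPM of the silenced libraries did not overlap those of the scrambled libraries. Against the empty vector 9638 of 14292 genes were called (67.4%), 4857 higher (34.0%) and 4781 lower (33.5%), and since both comparisons share the silenced libraries, their values are only set side by side.

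The 77 families counted hold 4029 tested genes. The counts of each family are best read against the shares over all genes, 26.2% higher and 28.5% lower, and against a median log2FC of −0.00108 over all genes. Values for a gene are given for the 3 scrambled libraries first and the 3 silenced libraries second, in replicate order, and a value in brackets after a gene is its log2FC (silencing over scrambled) with its standard error (SE). Genes named as having risen or fallen passed the adjusted p of 0.05 over all genes tested, and their libraries did not overlap. Such a lack of overlap was found in 61.9% of all genes tested. Where it is repeated below for single genes it only describes them.

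**Figure D1:**
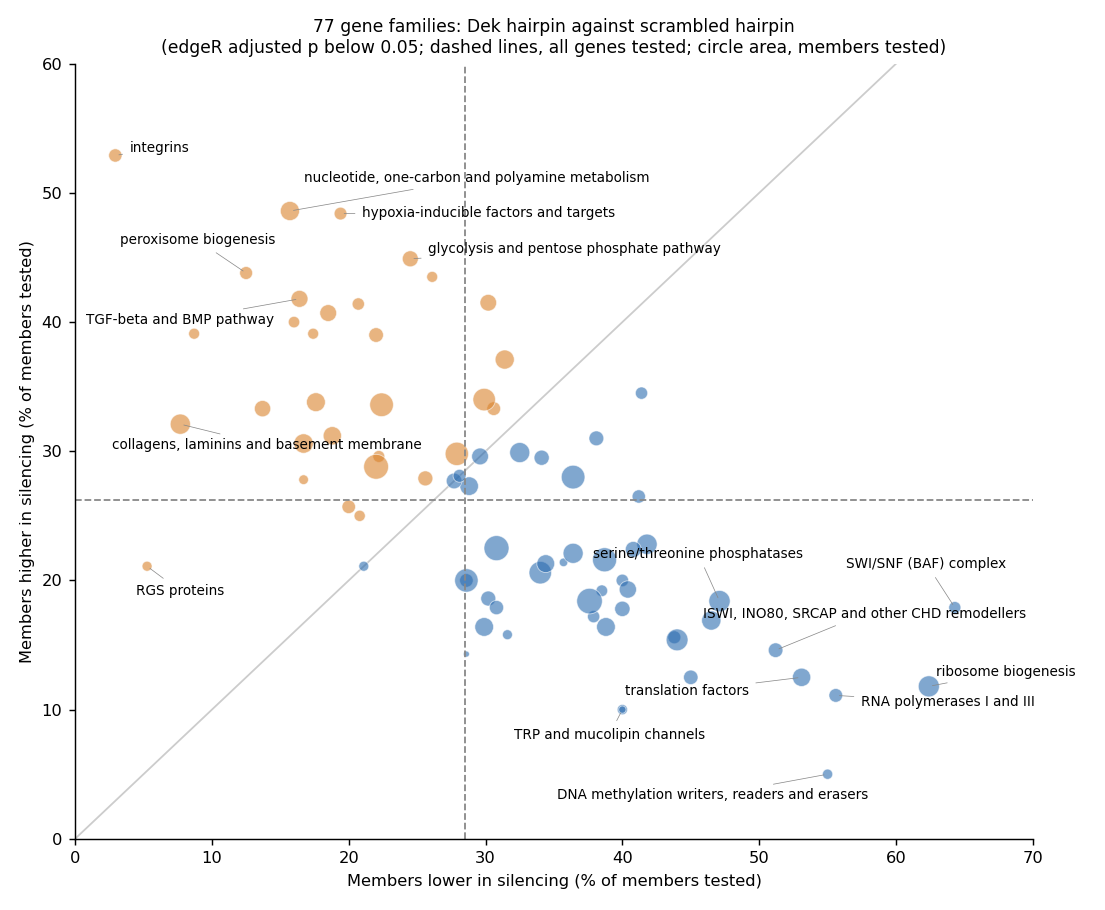
Share of members called lower (horizontal axis, % of members tested) and higher (vertical axis, %) in silencing against scrambled for 77 families, 1 circle each with area proportional to the members tested. Dashed lines mark all genes tested (28.5% lower, 26.2% higher), and families above the grey diagonal (orange) have more higher than lower members, with integrins at the upper left and ribosome biogenesis and SWI/SNF at the lower right.

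Genes for building ribosomes and for translation were more often lower than higher after Dek silencing. Ribosomes are assembled in the nucleolus, where RNA polymerase I makes the precursor of ribosomal RNA and a large set of processing and assembly factors cuts, modifies and folds it, while RNA polymerase III makes the 5S ribosomal RNA and the transfer RNAs. Of 85 ribosome biogenesis genes 53 fell and 10 rose, with a median log2FC of −0.446, and with library size scaling 47 fell and 19 rose. Against the empty vector 49 were lower and 14 higher. The 3′ UTR run AAGAGGA was present in 5 of the 53 lower and 2 of the 10 higher members.

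Ncl encodes nucleolin, an abundant nucleolar protein that binds ribosomal RNA precursors, and it fell from 556, 550.0 and 557 CPM to 123, 119 and 154 CPM (log2FC = −2.06, SE 0.09, adjusted p = 6.7e-08). Npm1, nucleophosmin, another major nucleolar protein, fell from 351, 359 and 366 CPM to 199, 192 and 214 CPM (−0.82, SE 0.05). Nolc1, a nucleolar scaffold for small nucleolar RNA particles, fell from 81.5, 81.8 and 78.7 CPM to 26.1, 23.1 and 31.7 CPM (−1.57, SE 0.10). For each of the 3 genes every silenced library lay below every scrambled library. Bop1 (−1.13, SE 0.08), a subunit of the PeBoW complex of large subunit maturation, and Noc2l (−1.23, SE 0.07), a nucleolar complex protein, fell as well. The rises were smaller, and the 2 with the smallest adjusted p were Nol6 (0.43, SE 0.05), of the small subunit processome, and Nhp2 (0.58, SE 0.09), a core protein of H/ACA particles that guide pseudouridylation. Npm1 has near-identical processed copies in the genome, so its counts are less certain.

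RNA polymerases I and III and their factors were 20 lower and 4 higher of 36 (median log2FC −0.245), with 16 and 7 under library size scaling and 18 and 7 after a correction for transcript GC content and length. Gtf3a encodes TFIIIA, the factor that recognises the 5S gene, and went from 27.8, 27.5 and 27.5 CPM to 4.72, 5.14 and 9.17 CPM (log2FC = −2.10, SE 0.21, adjusted p = 4.2e-05). Polr3gl, a subunit of RNA polymerase III, went from 12.2, 11.3 and 12.2 CPM to 2.06, 2.71 and 3.29 CPM (log2FC = −2.13, SE 0.17, adjusted p = 6.9e-07). Silencing replicate 3 was the highest of the silenced libraries for both, but remained under every scrambled library. Polr3a, the largest subunit of the same enzyme (0.45, SE 0.08), was among the 4 that rose, so subunits of 1 enzyme moved in both directions. AAGAGGA was present in 7 of the 19 lower members with a 3′ UTR, Gtf3a and Polr3gl included, and in 1 of the 4 higher members.

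Of 64 translation factors 34 fell and 8 rose (median −0.183), and 23 fell and 15 rose with library size scaling. Initiation factors were 25 lower and 6 higher of 42. Among elongation and termination factors 8 fell and 1 rose of 14, and among mitochondrial factors 1 fell and 1 rose of 8. Eif3d, the eIF3 subunit that can bind the mRNA cap, fell from 174, 163 and 165 CPM to 44.9, 43.3 and 54 CPM (log2FC = −1.81, SE 0.08, adjusted p = 1.2e-08). The ribosomal subunit joining factor Eif5b fell (−1.14, SE 0.06). Eif5a2, the less common of a pair of genes for eIF5A, rose from 22.7, 23.1 and 21.6 CPM to 65.5, 57.2 and 54.3 CPM (1.41, SE 0.09), as did Eif6 (0.63, SE 0.08), which keeps the large subunit from joining early. The elongation factor Eef1a1, at 4609 to 4973 CPM over the 6 libraries, did not pass (log2FC = −0.05, SE 0.04, adjusted p = 0.26). AAGAGGA was in 4 of the 34 lower and 1 of the 8 higher genes.

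Aminoacyl-tRNA synthetases, which load transfer RNAs, were 12 lower and 7 higher of 39, a balance that library size scaling turned to 8 lower and 9 higher (AAGAGGA in 1 of 12 lower and 1 of 7 higher). Yars (−0.80, SE 0.07) and Nars (−0.79, SE 0.10), for tyrosine and asparagine, fell, while Qars, for glutamine (0.63, SE 0.05), rose.

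**Figure D2:**
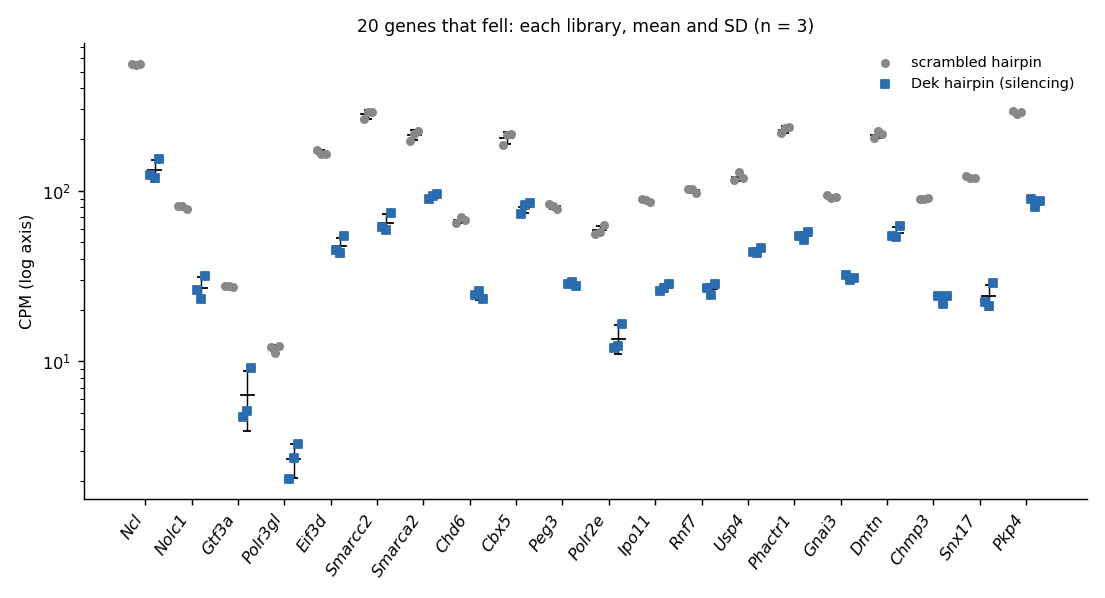
CPM (log axis) in each library for 20 genes that fell, scrambled hairpin as grey circles and Dek hairpin as blue squares, with the mean and SD of 3 libraries as bars. In every gene the 3 silenced libraries lie below the 3 scrambled libraries, and Ncl fell from between 550 and 557 CPM to between 119 and 154 CPM.

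Chromatin remodelling genes were also more often lower than higher. Remodellers of the SWI/SNF, ISWI, INO80 and CHD classes use ATP to slide, evict or exchange nucleosomes, and neurons carry their own SWI/SNF assembly with particular subunits. Of the 28 SWI/SNF genes 18 fell and 5 rose (median −0.402, against the empty vector 19 lower and 5 higher). The count was 15 lower and 6 higher with library size scaling and 17 lower and 4 higher once counts were corrected for transcript GC content and length. AAGAGGA was present in 4 of 18 lower and 0 of 5 higher members.

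Smarcc2, a core scaffold subunit of the complex, fell from 262, 289 and 289.9 CPM to 61.4, 59.2 and 74.6 CPM (log2FC = −2.10, SE 0.09, adjusted p = 1.4e-08), below every scrambled library by a wide margin. Smarca2, 1 of the 2 alternative ATPases, fell from 196, 216 and 226 CPM to 90.1, 93.2 and 95.8 CPM (−1.18, SE 0.06). Arid1a, the large DNA-binding subunit, fell from 90.3, 92.5 and 93.3 CPM to 55.4, 53.5 and 53 CPM (−0.76, SE 0.06). Ss18l1, also called Crest, a subunit of the assembly in mature neurons, fell from 80.3, 83.1 and 73.9 CPM to 32.4, 30.3 and 30.3 CPM (−1.34, SE 0.07). Its relative Ss18, of dividing progenitors, rose from 8.88, 14.1 and 14.4 CPM to 17.3, 18.7 and 19.7 CPM (log2FC = 0.59, SE 0.16, adjusted p = 0.0099). Actl6b, another subunit of the assembly in mature neurons, was at 0.08 (SE 0.06, adjusted p = 0.25) with overlapping libraries, and passed with library size scaling (0.18). Dpf2, the subunit found in the complex of most cells, rose (0.60, SE 0.06).

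ISWI, INO80, SRCAP and the other CHD remodellers were 21 lower and 6 higher of 41 (median −0.295). The ISWI class stood at 8 lower and 1 higher of 11, with both of its ATPases lower. Smarca1 fell from 59.95, 63.6 and 64.3 CPM to 30.4, 24.4 and 27.1 CPM (−1.19, SE 0.08) and Smarca5 fell from 73.6, 67.4 and 69.1 CPM to 36.2, 34.4 and 39.1 CPM (−0.93, SE 0.07). Srcap, which places the histone variant H2A.Z, fell from 66.3, 68.1 and 73.8 CPM to 24.1, 25.8 and 27.7 CPM (−1.41, SE 0.08). Chd6 fell from 64.6, 70.3 and 67.8 CPM to 24.4, 26 and 23.1 CPM (−1.45, SE 0.07). Atrx, which works with a histone H3.3 chaperone at repeats, fell from 119.6, 119 and 121 CPM to 63.2, 52.3 and 54.2 CPM (−1.07, SE 0.07). Chd7 (0.91, SE 0.16) and the INO80 subunit Ino80e (0.47, SE 0.08) rose. AAGAGGA was in 2 of 21 lower and 1 of 6 higher members.

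Genes that write, read or erase DNA methylation were 11 lower and 1 higher of 20 (median −0.251, AAGAGGA in 4 of 11 lower and 0 of 1 higher), and 7 and 1 after the GC and length correction. Dnmt3a, the main methyltransferase of neurons, fell from 262, 277 and 289 CPM to 194, 197 and 186 CPM (−0.51, SE 0.05, and −0.33 after the GC and length correction). The maintenance enzyme Dnmt1 fell (−0.38, SE 0.09), as did the methyl-CpG binding proteins Zbtb4 (−0.82, SE 0.06) and Mbd1 (−0.47, SE 0.07) and the oxidase Tet2 (−0.50, SE 0.10, −0.25 after the correction). The gene that rose, Dnmt3b, was at 0.512, 0.421 and 0.418 CPM in the scrambled and 0.726, 0.704 and 1.27 CPM in the silenced libraries with an adjusted p of 0.049, and it did not pass in 8 of the 15 alternative fits that tested it or against the empty vector (0.03). The higher genes numbered 2 without scrambled replicate 1 and 0 without scrambled replicate 2 or 3 or silencing replicate 2 or 3.

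HMG proteins, linker and variant histones and heterochromatin proteins were 16 lower and 13 higher of 42, equal at 15 and 15 with library size scaling and 15 and 17 without silencing replicate 1 (AAGAGGA in 3 of 16 lower and 0 of 13 higher). The heterochromatin genes among them stood at 7 lower and 2 higher of 11, and Cbx5, HP1 alpha, which binds methylated histone H3, fell from 185, 213 and 214 CPM to 73.2, 82.2 and 84.5 CPM (log2FC = −1.34, SE 0.07, adjusted p = 4.5e-08). Hmgb1, an abundant DNA-bending protein, fell from 257, 260.0 and 285 CPM to 134, 125 and 147 CPM (−0.97, SE 0.07). Linker and variant histones were 6 higher and 4 lower of 14. Of these H2afj rose from 10.6, 10.9 and 9.38 CPM to 25.6, 37.2 and 35.9 CPM (1.69, SE 0.14), and so did H2afz, the gene of an H2A.Z, from 112, 121 and 111 CPM to 186, 205 and 210.0 CPM (0.82, SE 0.06). Hmgn2, a nucleosome-binding protein, rose (0.40, SE 0.05), and it and Hmgb1 have near-identical processed copies in the genome that could share reads.

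Cohesin, condensin and CTCF genes, which form and hold chromatin loops, were 10 lower and 5 higher of the 26 tested among 27, and equal at 7 and 7 after the GC and length correction. With a filter of 5 CPM 9 were lower and 3 higher. Cohesin itself was 7 lower and 2 higher of 13, with Pds5b (−0.92, SE 0.08), Stag2 (−0.78, SE 0.07) and the ring subunit Rad21 (−0.60, SE 0.06) lower. The condensin subunit Smc4 rose (0.61, SE 0.11), and against the empty vector it was at 0.08 and not called. AAGAGGA was in 1 of 10 lower and 0 of 5 higher members.

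Imprinted genes, expressed from 1 parental copy, were 18 lower and 5 higher of the 40 tested among 44, 12 lower and 2 higher of 25 paternally expressed and 6 lower and 3 higher of 15 maternally expressed. Peg3, a paternally expressed zinc finger protein, fell from 84.2, 81.5 and 78.8 CPM to 28.3, 29.1 and 27.7 CPM (log2FC = −1.51, SE 0.06, adjusted p = 8e-09). The long noncoding RNAs Meg3 and Rian, maternally expressed from 1 cluster, fell from 1298, 1233 and 1261 CPM to 855, 847 and 827 CPM (−0.57, SE 0.04) and from 975, 964 and 958 CPM to 638, 573 and 608 CPM (−0.66, SE 0.05), with −0.33 and −0.38 after the GC and length correction. Igf2r, a maternally expressed receptor that carries IGF2 and lysosomal enzymes to the lysosome, rose from 52, 49.2 and 50.6 CPM to 123, 123 and 111 CPM (1.24, SE 0.06). Slc22a18 was near the floor, at 0.0569, 0.12 and 0.179 CPM, and reached 0.908, 1.14 and 1.27 CPM (3.17, SE 0.48). The abundant Nnat overlapped between the groups (0.13, SE 0.06, adjusted p = 0.086) and passed in 4 of the 16 alternative fits. AAGAGGA was in 5 of 13 lower and 0 of 4 higher members with a 3′ UTR.

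**Figure D3:**
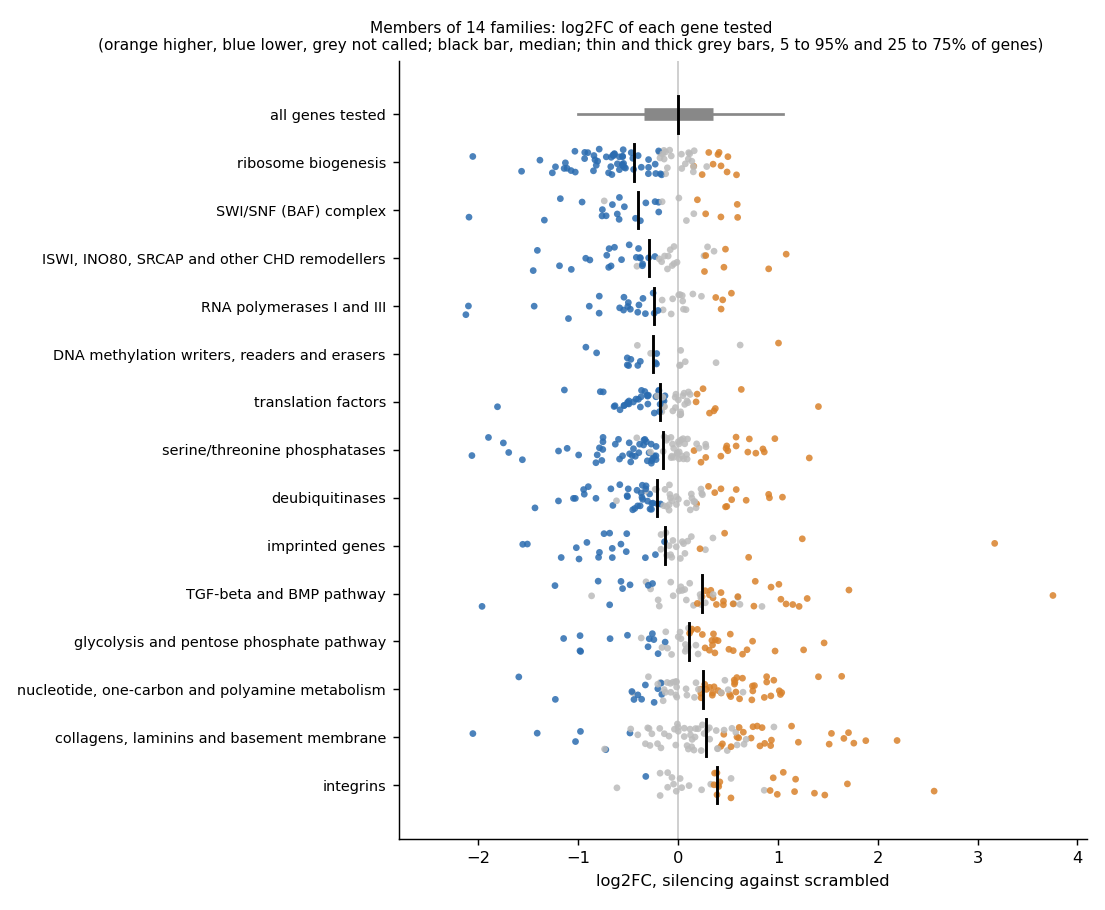
log2FC (silencing against scrambled) of each tested member of 14 families, orange where higher, blue where lower and grey where not called, with the median as a black bar, and all genes tested at the top as a thick grey bar (25 to 75%) and a thin one (5 to 95%). The median of ribosome biogenesis is −0.446 and that of integrins 0.389, against −0.00108 over all genes.

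Genes of the RNA polymerase II machinery and of mRNA handling leaned lower, with more exceptions. Mediator bridges enhancers and the polymerase, TFIID binds core promoters, and elongation factors carry the polymerase through nucleosomes. These genes were 43 lower and 24 higher of 111, but 29 lower and 37 higher with library size scaling. Elongation factors stood at 14 lower and 4 higher of 31, TFIID and general factors at 12 and 6 of 34, the polymerase at 6 and 4 of 13, and Mediator at 11 and 10 of 33. AAGAGGA was in 9 of 43 lower and 2 of 24 higher members.

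Polr2e, a subunit shared by all 3 nuclear RNA polymerases, fell from 56, 57.5 and 62.6 CPM to 12, 12.2 and 16.6 CPM (log2FC = −2.09, SE 0.12, adjusted p = 7.9e-08). Cdk19, a kinase of Mediator, fell from 25.5, 31.5 and 32.6 CPM to 7.5, 7.42 and 6.36 CPM (−2.06, SE 0.12). Supt6, a histone chaperone of elongation, fell from 151, 145 and 148 CPM to 49.4, 49.8 and 59.1 CPM (−1.48, SE 0.07). Taf1, the largest TFIID subunit, fell from 113, 106 and 103 CPM to 51.9, 46 and 47 CPM (−1.14, SE 0.07). All 4 genes were below the scrambled range in every silenced library. The Mediator head subunits Med20 (0.85, SE 0.06) and Med22 (0.75, SE 0.06) and the polymerase subunit Polr2g (0.42, SE 0.06) rose.

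Nuclear pore, transport and lamina genes were 28 lower and 17 higher of 77, 21 and 26 with library size scaling (AAGAGGA in 4 of 28 lower and 3 of 17 higher). Transport receptors and Ran regulators held most of the falls, 17 lower and 5 higher of 32, whereas pore proteins were 7 lower and 8 higher of 29. Ipo11, an import receptor, fell from 89.6, 88.2 and 86.2 CPM to 25.7, 26.9 and 28.5 CPM (log2FC = −1.69, SE 0.06, adjusted p = 3.7e-09). Cse1l, which returns importin alpha to the cytoplasm, fell from 97.1, 96.3 and 100.3 CPM to 34.1, 35.6 and 34.1 CPM (−1.49, SE 0.06). Rangap1, the activator of GTP hydrolysis by Ran, fell from 393, 394 and 391 CPM to 131, 118 and 139 CPM (−1.59, SE 0.06). The scrambled libraries of these 3 genes lay within a narrow range and well above the silenced libraries. The pore gene Nup88 fell (−1.20, SE 0.07), and the pore genes Pom121 (0.54, SE 0.05) and Aaas (0.87, SE 0.09) rose.

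mRNA 3′ end processing and decay genes were 40 lower and 14 higher of 91 (median −0.165, AAGAGGA in 9 of 39 lower and 2 of 14 higher). The helicase Ddx6, which couples decapping and translational repression, fell from 181, 186 and 185 CPM to 107, 102 and 108 CPM (−0.80, SE 0.05), and the poly(A) polymerase Papola fell (−0.67, SE 0.06). Smg5 (−0.96, SE 0.07) and Upf2 (−1.19, SE 0.11), of nonsense-mediated decay, fell, while the decapping protein Dcp1a (0.69, SE 0.09) and the exosome subunit Exosc2 (0.50, SE 0.09) rose. RNA modification, editing and granule genes were 23 lower and 11 higher of the 57 tested among 58, but 22 and 22 with library size scaling and 17 lower and 21 higher after the GC and length correction (AAGAGGA in 7 of 23 lower and 1 of 11 higher). The higher count was 5 without scrambled replicate 2 or without scrambled replicate 3 and 7 without silencing replicate 2. Fto, a demethylase of modified adenosine, fell from 226, 226 and 219 CPM to 109.5, 107 and 114 CPM (−1.0, SE 0.05), and within the adenosine methylation genes 9 fell and 5 rose of 16. Adarb2, a brain relative of the editing enzymes (−0.96, SE 0.09), and the stress granule protein G3bp2 (−0.64, SE 0.05) fell, while Adat2, which edits transfer RNA, rose (1.02, SE 0.16).

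Ubiquitin ligases, deubiquitinases and chaperones showed large changes in single genes and a balance that depended on scaling. Ubiquitin passes from E1 to E2 enzymes and on to substrates through ligases that confer specificity, and deubiquitinases remove it. Cullin-RING ligase genes were 37 lower and 27 higher of the 120 tested among 121, and 27 and 42 with library size scaling (AAGAGGA in 8 of 37 lower and 3 of 27 higher). Rnf7, a RING subunit of cullin ligases, fell from 102, 102 and 96.6 CPM to 27.1, 24.5 and 28.2 CPM (log2FC = −1.91, SE 0.07, adjusted p = 3e-09). Fbxl16, an F-box protein, fell from 248, 255 and 256 CPM to 65.8, 67.2 and 76 CPM (−1.85, SE 0.06). Klhl24, a cullin 3 adaptor, fell from 49.8, 55.6 and 56.6 CPM to 17.1, 17.6 and 17 CPM (−1.64, SE 0.08). Cand2, a relative of the factor that exchanges adaptors on cullins, rose from 8.65, 11.3 and 9.86 CPM to 28, 32.1 and 29 CPM (1.6, SE 0.11). Skp2, an F-box protein of the cell cycle, rose (1.35, SE 0.14).

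HECT and other RING ligases were 47 lower and 23 higher of 125, but 36 lower and 40 higher with library size scaling and 42 and 40 after the GC and length correction (AAGAGGA in 12 of 47 lower and 4 of 23 higher). Trim44 fell from 278, 279 and 267 CPM to 91.5, 88.6 and 91.4 CPM (−1.59, SE 0.05). Rnf157, a RING ligase of neurons, fell from 307, 294 and 289.8 CPM to 79.3, 68.4 and 80.4 CPM (−1.96, SE 0.07). The giant HECT ligase Huwe1 fell (−0.95, SE 0.05), while Ube3b (0.88, SE 0.05) and Rnf185, of the endoplasmic reticulum (0.97, SE 0.07), rose. Ubiquitin, E1, E2 and SUMO genes were 21 lower and 13 higher of the 61 tested among 62, 17 and 26 with library size scaling and 19 and 22 after the GC and length correction (AAGAGGA in 4 of 21 lower and 2 of 13 higher). The SUMO protease Senp6 fell (−0.96, SE 0.06). The E2 enzymes Ube2b, from 146, 144 and 147 CPM to 265, 252 and 244 CPM (0.81, SE 0.05), and Ube2l6 (1.28, SE 0.09) rose.

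Deubiquitinases were 33 lower and 12 higher of the 71 tested among 72, 23 and 19 with library size scaling, and an even 23 and 23 after the GC and length correction. AAGAGGA was present in 11 of the 33 lower and 2 of the 12 higher members. Usp4 fell from 116, 129 and 119 CPM to 43.9, 42.9 and 46.4 CPM (log2FC = −1.43, SE 0.06, adjusted p = 1e-08). Usp5, which recycles free ubiquitin chains, fell (−1.05, SE 0.06), as did Usp7, known for acting on MDM2 (−1.03, SE 0.06). Uchl1, 1 of the most abundant neuronal proteins, went from 1099, 1174 and 1093 CPM to 586, 613 and 688 CPM (−0.82, SE 0.06). These 4 genes are among the 11 lower members with AAGAGGA. Usp20 (0.91, SE 0.05) and Usp22, of the SAGA complex (0.43, SE 0.05), rose.

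HSP90, chaperonin, prefoldin and small heat shock genes were 20 lower and 11 higher of the 49 tested among 52, 15 and 16 with library size scaling (AAGAGGA in 3 of 20 lower and 0 of 11 higher). Without scrambled replicate 2 the higher members numbered 7. Hsp90aa1, the inducible cytosolic HSP90, fell from 2134, 2071 and 2052 CPM to 978, 809.6 and 958 CPM (log2FC = −1.18, SE 0.07, adjusted p = 1.3e-07). The constitutive Hsp90ab1 fell less, from 3009, 3019 and 3076 CPM to 2255, 2047 and 2330 CPM (−0.45, SE 0.05). The cochaperone Stip1 fell (−0.72, SE 0.06). Small heat shock proteins were 4 higher and 0 lower of 6, with Hspb8 from 3.59, 3.61 and 4.42 CPM to 8.17, 11.3 and 9.38 CPM (1.32, SE 0.17) and Cryab (0.41, SE 0.07) among those that rose.

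Intracellular signalling families moved in both directions, and phosphatases were more often lower than higher. Serine/threonine phosphatases work as a few catalytic subunits bound to many regulators that choose the place and the substrate. Of the 87 tested among 89, 41 fell and 16 rose (median −0.15), and 34 fell and 23 rose with library size scaling (AAGAGGA in 6 of 40 lower and 0 of 16 higher). Regulators of protein phosphatase 1 were 16 lower and 7 higher of 32, PP2A genes 7 and 3 of 23, and calcineurin genes 4 and 1 of 7.

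Phactr1, a regulator of phosphatase 1 that also binds actin, fell from 217, 232 and 236 CPM to 54.2, 51.2 and 57 CPM (log2FC = −2.06, SE 0.06, adjusted p = 8.7e-10). Its relative Phactr3 fell from 116, 110.5 and 112 CPM to 29.2, 29.1 and 31.8 CPM (−1.90, SE 0.06). Ppp1r9b, spinophilin, which anchors the phosphatase in dendritic spines, fell from 299, 337 and 342 CPM to 101, 105 and 122 CPM (−1.56, SE 0.08). The silenced libraries of these 3 genes held well under the lowest scrambled value. Ppm1g, a metal-dependent phosphatase, fell (−1.70, SE 0.09). Ppp1r3d, which brings phosphatase 1 to glycogen, rose from 13.6, 13.1 and 12.6 CPM to 32.7, 35.3 and 29.1 CPM (1.31, SE 0.10), as did the PP2A scaffold Ppp2r1b (0.97, SE 0.08).

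RAS and MAP kinase modules were 33 lower and 18 higher of the 79 tested among 83, with 27 and 25 under library size scaling (AAGAGGA in 9 of 33 lower and 1 of 18 higher). Rasgrf2, a calcium-dependent exchange factor of RAS, fell from 50.5, 64.4 and 58.5 CPM to 15.9, 19.9 and 16.7 CPM (−1.71, SE 0.11). Mapk10, the JNK gene of neurons, fell from 255, 252 and 245 CPM to 134, 129 and 139 CPM (−0.89, SE 0.05). Mixed lineage kinases divided, Map3k9 lower (−1.09, SE 0.07) and Map3k11 higher (0.84, SE 0.09). The kinase Mink1 fell (−1.33, SE 0.09) while the small GTPase Rit1 rose (0.68, SE 0.06). PI3K, AKT and mTOR genes were 26 lower and 11 higher of the 67 tested among 69 (median −0.123, AAGAGGA in 5 of 26 lower and 1 of 11 higher), and 24 and 18 after the GC and length correction. Akt1 overlapped between the groups (−0.09, SE 0.06, adjusted p = 0.24) and passed only after the GC and length correction, with and without the replicate block (−0.16 in both). Lower genes included the PI3K regulator Pik3r3 (−1.02, SE 0.07), Rictor, of an mTOR complex (−0.97, SE 0.11), and the mTOR inhibitors Depdc5 (−1.18, SE 0.08) and Tsc1 (−0.67, SE 0.06), so activators and inhibitors fell together. Rragd, which recruits mTOR to the lysosome (0.94, SE 0.06), and the lipid phosphatase Inppl1 (1.04, SE 0.13) rose.

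AMPK and related kinases, which respond to low energy, were 10 higher and 6 lower of the 23 tested among 24 (AAGAGGA in 0 of 6 lower and 2 of 10 higher). Its catalytic genes diverged, Prkaa1 falling from 14.8, 16.1 and 20.6 CPM to 9.32, 9.47 and 9.38 CPM (−0.86, SE 0.13) and Prkaa2 rising from 82.4, 80.5 and 77.8 CPM to 132, 127 and 116 CPM (0.65, SE 0.06). The regulatory Prkab1 rose (1.01, SE 0.09). Protein kinase C, diacylglycerol and inositol genes were 25 lower and 23 higher of the 77 tested among 80, a near-even balance that turned in 10 of the 16 alternative fits (AAGAGGA in 5 of 25 lower and 0 of 23 higher). Dgkg, a diacylglycerol kinase, fell from 46.2, 41.7 and 41.7 CPM to 11.3, 8.82 and 11.9 CPM (log2FC = −2.0, SE 0.11, adjusted p = 4.3e-08). Prkcz, an atypical protein kinase C, fell from 216, 229 and 237 CPM to 83.5, 83.9 and 91.7 CPM (−1.38, SE 0.06). Plcg1 fell (−1.05, SE 0.07), while the protein kinase D gene Prkd1 (1.28, SE 0.15) and the lipid kinase Pip4k2c (0.95, SE 0.05) rose. Of the 7 genes of 14-3-3 proteins, which bind phosphorylated partners, 2 fell and 1 rose, and 1 fell and 2 rose with library size scaling. The lower genes numbered 1 without scrambled replicate 2 or 3 or silencing replicate 2, and 2 rose without silencing replicate 3. Ywhae went from 1205, 1236 and 1235 CPM to 1058, 1032 and 1069 CPM (−0.21, SE 0.04, −0.11 with library size scaling) and Ywhaq from 723, 754 and 724 CPM to 786, 840.5 and 866 CPM (0.19, SE 0.05, 0.29 with library size scaling).

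Inhibitory and Gq-type G proteins were 12 lower and 6 higher of the 30 tested among 38 (AAGAGGA in 4 of 12 lower and 3 of 6 higher). Gnai3, an inhibitory alpha subunit, fell from 94.1, 91.2 and 92.2 CPM to 32.1, 29.9 and 30.6 CPM (log2FC = −1.57, SE 0.06, adjusted p = 4.5e-09). Gng2, a gamma subunit, fell from 633, 646 and 658 CPM to 299, 261 and 253 CPM (−1.24, SE 0.06). Gng5, another gamma subunit, rose from 15, 16.6 and 15.9 CPM to 32.5, 41.6 and 41.6 CPM (1.3, SE 0.10). Gna12, another alpha subunit, rose (0.93, SE 0.08). Among RGS proteins, which end G protein signals, 4 rose and 1 fell of the 19 tested among 22. The lower RGS genes numbered 3 after the GC and length correction and 2 without scrambled or silencing replicate 1. Rgs16 rose from 41.2, 27.3 and 29.6 CPM to 125, 95.2 and 93.1 CPM (1.69, SE 0.20). Rgs3 rose from 71.1, 58.5 and 54.4 CPM to 180.2, 160.2 and 157 CPM (1.44, SE 0.10). Both carry AAGAGGA in the 3′ UTR. Rgs5 rose as well (1.89, SE 0.17), a gene that is also in the mural cell list. Rgs10 fell against the scrambled hairpin (−0.27, SE 0.06, −0.17 with library size scaling) and was higher against the empty vector (0.40), so its direction depends on the control. AAGAGGA was in 3 of 4 higher and 0 of 1 lower RGS genes, which stood at 6 higher and 7 lower against the empty vector.

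Cyclic nucleotide phosphodiesterases and cyclases were nearly even, 12 higher and 11 lower of the 36 tested among 39, a balance that turned with the replicate block (8 higher and 19 lower against the empty vector, AAGAGGA in 3 of 11 lower and 0 of 12 higher). Pde4a (−1.25, SE 0.08) and Pde4d (−1.0, SE 0.07), which break down cyclic AMP, fell together with the adenylyl cyclase Adcy5, which makes it and went from 111, 131 and 126 CPM to 52.8, 52 and 55.7 CPM (−1.19, SE 0.07). Npr2, a receptor cyclase for C-type natriuretic peptide, rose (0.84, SE 0.11). Calcium-binding proteins were 13 lower and 8 higher of the 43 tested among 47, and 11 and 14 with library size scaling (17 higher and 12 lower against the empty vector, AAGAGGA in 3 of 13 lower and 1 of 8 higher). Camta1, a calmodulin-binding transcription factor, fell (−1.15, SE 0.07). In the endoplasmic reticulum Calu fell from 193, 178 and 183 CPM to 62.9, 63.8 and 70.3 CPM (−1.48, SE 0.06) and the chaperone Calr fell (−0.87, SE 0.07), while Necab2 rose (0.45, SE 0.05).

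Signals between cells leaned higher for the TGF-beta and BMP pathway. Its ligands are secreted dimers, often held in the matrix by latency proteins, that bind paired serine/threonine kinase receptors and act through SMAD proteins. Of the 55 tested among 68, 23 rose and 9 fell (median 0.24, against the empty vector 24 higher and 11 lower), with 7 higher and 1 lower of 15 ligands, 6 and 2 of 11 receptors, 4 and 3 of 15 inhibitors and 4 and 2 of 7 transducers. Gdf5, a BMP-type ligand, was under 1 CPM in the scrambled libraries and rose from 0.399, 0.361 and 0.418 CPM to 5.87, 6.06 and 4.13 CPM (log2FC = 3.75, SE 0.28, adjusted p = 4.7e-07). Tgfbr2, the type II receptor for TGF-beta, rose from 4.78, 4.76 and 4.3 CPM to 10.8, 10.1 and 9.65 CPM (1.15, SE 0.13). The latency protein gene Ltbp3 rose from 7, 6.74 and 8.01 CPM to 15.2, 18.4 and 16.4 CPM (1.21, SE 0.12). Bmp3 fell from 22.5, 19 and 21 CPM to 6.05, 4.98 and 4.88 CPM (−1.96, SE 0.13). Ski, a SMAD corepressor, fell (−0.80, SE 0.08). AAGAGGA was in 3 of 9 lower and 4 of 23 higher members, Bmp3 and Ski among the lower.

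Wnt pathway genes were 20 higher and 12 lower of the 64 tested among 81 (22 higher and 20 lower against the empty vector, AAGAGGA in 5 of 12 lower and 2 of 20 higher). The ligand Wnt5a rose from 23.3, 27.5 and 25.6 CPM to 51.4, 54 and 46.3 CPM (1.0, SE 0.09). The cytoplasmic Dvl3, which relays the signal, rose (0.92, SE 0.06). The secreted antagonist Sfrp1 fell from 105, 113 and 114 CPM to 41.5, 46.5 and 50.4 CPM (−1.25, SE 0.07), against 5 of the 9 tested inhibitors that rose, and the receptor Fzd3 fell (−0.81, SE 0.06, −0.49 after the GC and length correction). Notch pathway genes were 9 higher and 7 lower of the 35 tested among 37 (AAGAGGA in 2 of 7 lower and 1 of 9 higher), and 13 and 3 with library size scaling. Rbpj, the DNA-binding partner of activated Notch, rose from 19.1, 16.9 and 19.9 CPM to 38.9, 37 and 34.6 CPM (0.99, SE 0.09). Dner, a neuronal transmembrane protein related to Notch ligands, fell from 1401, 1375 and 1388 CPM to 932, 861 and 859 CPM (−0.64, SE 0.05). Without silencing replicate 1 the Notch genes were 14 higher. None of the 4 receptors passed in edgeR at an adjusted p of 0.05, and Notch1 (0.27, SE 0.23, adjusted p = 0.35) and Notch2 (−0.0023, SE 0.16, adjusted p = 0.99) overlapped between the groups. All 4 receptors were higher against the empty vector, Notch1 at 0.45 and Notch2 at 0.51. Notch1 passed in both fits with a replicate block (0.27 and, with the GC and length correction, 0.41). Of the 18 hedgehog pathway genes tested among 20, 5 rose and 3 fell, with Smo, the signalling receptor, from 7.06, 10.2 and 11.3 CPM to 15.5, 21.3 and 23 CPM (1.08, SE 0.19, AAGAGGA in 0 of 3 lower and 2 of 5 higher members). Without silencing replicate 1 the higher hedgehog genes numbered 8, and the list was 8 higher and 2 lower both with library size scaling and after the GC and length correction.

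Neurotrophin, GDNF and related genes were 10 higher and 4 lower of the 25 tested among 31 (AAGAGGA in 2 of 4 lower and 2 of 9 higher). Cntfr, the receptor subunit for ciliary neurotrophic factor, rose from 68.3, 69.1 and 75.2 CPM to 107, 116 and 106 CPM (0.65, SE 0.06). The receptor that it works with, Lifr, fell from 21.8, 18.6 and 17.4 CPM to 11.6, 11.6 and 10.4 CPM (−0.77, SE 0.11, −0.50 after the GC and length correction). Ngfr, the neurotrophin receptor p75, fell (−0.60, SE 0.10), while Ret, the GDNF receptor kinase, rose (0.90, SE 0.17). Against the empty vector these last genes were at 0.12 and 0.28, and neither was called. FGF genes were even, 4 higher and 4 lower of the 19 tested among 30, but 5 and 2 with library size scaling (AAGAGGA in 0 of 4 lower and 0 of 4 higher). The receptor Fgfr1 rose (0.70, SE 0.08), and the ligand Fgf18 fell from 3.53, 3.85 and 3.65 CPM to 1.21, 1.62 and 1.7 CPM (−1.26, SE 0.21). Fgf12, an intracellular partner of sodium channels, fell (−0.39, SE 0.06, −0.24 after the GC and length correction).

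EGF and neuregulin genes were 5 lower and 3 higher of the 14 tested among 18, 3 and 4 after the GC and length correction (AAGAGGA in 2 of 5 lower and 0 of 3 higher). Its neuregulins split, Nrg1 higher (0.90, SE 0.20) and Nrg3 lower (−0.64, SE 0.08). Egfr fell (−0.59, SE 0.12, −0.31 after the correction). Insulin and IGF genes were 6 lower and 3 higher of the 19 tested among 24, even at 6 and 6 with library size scaling or the GC and length correction, with 5 of the 8 adaptors lower and 0 higher (AAGAGGA in 4 of 6 lower and 1 of 3 higher). Without silencing replicate 3 the higher members numbered 5. The adaptors Irs1 (−0.56, SE 0.08) and Irs2 (−0.82, SE 0.12) and the binding protein Igfbp5, from 50.1, 60.3 and 66.4 CPM to 30.0, 28.2 and 29.6 CPM (−1.0, SE 0.10), fell, and Igfbp3 rose (0.44, SE 0.08).

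Receptors and channels outside the glutamate and GABA classes were mixed. Aminergic and muscarinic receptors were 8 higher and 6 lower of the 27 tested among 35 (9 higher and 10 lower against the empty vector, AAGAGGA in 3 of 6 lower and 2 of 7 higher). With library size scaling 3 were lower. The lower count rested on single libraries, since 3 were lower without scrambled replicate 1, 1 without scrambled replicate 2 and 3 without silencing replicate 2. The muscarinic receptor Chrm4 rose from 28.6, 26.9 and 26.1 CPM to 46.1, 42.7 and 48 CPM (0.76, SE 0.08). The serotonin receptor Htr5b rose from 2.56, 1.39 and 1.73 CPM to 6.48, 5.09 and 4.51 CPM (1.5, SE 0.24). Opioid, cannabinoid, adenosine, lysophospholipid and GABA-B genes were 6 higher and 5 lower of the 24 tested among 34, a balance that turned without silencing replicate 2 (AAGAGGA in 0 of 5 lower and 1 of 6 higher). In the endocannabinoid system the receptor Cnr1 fell from 281, 283 and 291 CPM to 198, 157 and 148 CPM (−0.76, SE 0.10). Dagla, which makes the ligand 2-arachidonoylglycerol, fell (−0.41, SE 0.08). Of the enzymes that break this ligand down, Mgll fell from 106, 126 and 122 CPM to 75.7, 80.8 and 80.7 CPM (−0.57, SE 0.07) and Abhd6 rose from 28, 27 and 26.9 CPM to 46.1, 47.1 and 48.1 CPM (0.80, SE 0.07). Against the empty vector Mgll was at −0.06 and not called.

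Nicotinic, glycine, purinergic, serotonin-gated and acid-sensing channels were 9 higher and 2 lower of the 23 tested among 38 (median 0.266). The lower count was 1 without scrambled replicate 2, scrambled replicate 3 or silencing replicate 2, with library size scaling and after the GC and length correction. Chrnb2 and Chrna4, which form the commonest nicotinic receptor of the brain, rose from 92.1, 100 and 98.7 CPM to 244, 254 and 217 CPM (log2FC = 1.31, SE 0.07, adjusted p = 2.6e-08) and from 36.9, 43.5 and 48.3 CPM to 80.1, 95.7 and 74.4 CPM (0.97, SE 0.12). Htr3a, a serotonin-gated channel, rose from 8.65, 8.85 and 9.92 CPM to 19.7, 17.8 and 15.8 CPM (0.97, SE 0.12, 2.7 against the empty vector). Asic2 fell (−0.75, SE 0.10). AAGAGGA was in 0 of 2 lower and 0 of 9 higher members. TRP and mucolipin channels were 8 lower and 2 higher of the 20 tested among 30, and 7 and 4 with library size scaling or the GC and length correction (AAGAGGA in 2 of 8 lower and 0 of 2 higher). Trpm2, a channel opened by oxidative stress, fell from 29.7, 26.9 and 27.2 CPM to 17.7, 16.4 and 15.7 CPM (−0.74, SE 0.09).

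Transporters of transmitters were 9 higher and 4 lower of the 23 tested among 29 (10 higher and 9 lower against the empty vector, AAGAGGA in 1 of 4 lower and 0 of 9 higher). Slc6a8, the creatine transporter, rose from 167, 138 and 131 CPM to 321, 308 and 289 CPM (1.08, SE 0.09). Slc17a6, which loads glutamate into vesicles, rose from 41.9, 42.6 and 42.9 CPM to 68.6, 64.8 and 61 CPM (0.62, SE 0.07). The neutral amino acid transporter Slc6a15 (−0.55, SE 0.08) and the vesicular monoamine transporter Slc18a2 (−1.02, SE 0.19) fell. Transporters of glucose, lactate and amino acids were 12 higher and 11 lower of the 43 tested among 48 (14 higher and 17 lower against the empty vector, AAGAGGA in 5 of 11 lower and 1 of 12 higher). The neuronal glucose transporter Slc2a3 fell from 342, 323 and 318 CPM to 237, 227 and 235 CPM (−0.48, SE 0.05). Slc38a2, a glutamine and alanine carrier, fell from 88.3, 67.6 and 70.3 CPM to 36.4, 35.6 and 35 CPM (−1.07, SE 0.10), while the lysosomal carrier Slc36a1 (0.85, SE 0.08) and the cationic amino acid carrier Slc7a2 (1.14, SE 0.13) rose.

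Zinc, copper and iron genes were 22 higher and 10 lower of the 54 tested among 59 (median 0.183, AAGAGGA in 3 of 10 lower and 2 of 22 higher). The copper chaperones Ccs, for superoxide dismutase, from 31, 32.9 and 33.4 CPM to 54.1, 51 and 51.5 CPM (0.70, SE 0.07), and Atox1 (0.45, SE 0.06) rose. Zinc carriers moved apart, with the importer Slc39a3 higher (0.59, SE 0.05) and the exporter Slc30a1 from 36.5, 34.4 and 35 CPM to 18.4, 15.9 and 17.7 CPM lower (−1.01, SE 0.08), as was the zinc and iron importer Slc39a14 (−1.07, SE 0.10). Aco1, which is also an iron-sensing RNA-binding protein, fell (−0.70, SE 0.07).

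**Figure D4:**
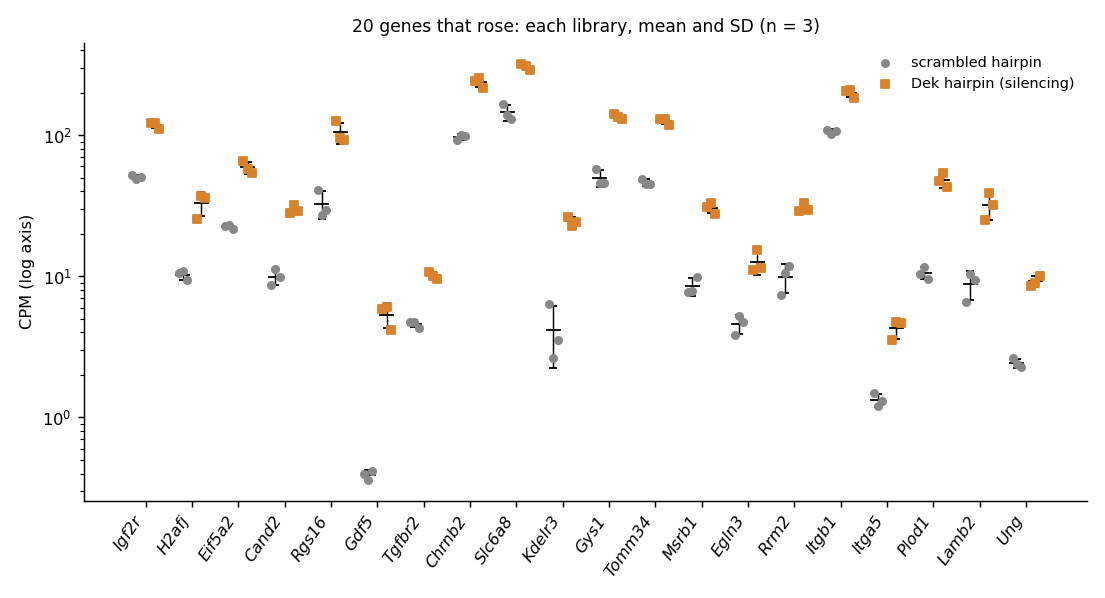
CPM (log axis) in each library for 20 genes that rose, scrambled hairpin as grey circles and Dek hairpin as orange squares, with the mean and SD of 3 libraries as bars. In every gene the 3 silenced libraries lie above the 3 scrambled libraries, and Gdf5 rose from between 0.361 and 0.418 CPM to between 4.13 and 6.06 CPM.

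Regulators of actin changed in both directions, and beta-actin (Actb) did not pass the test. Small GTPases switch actin assembly on and off, exchange factors load them with GTP, and activating proteins make them hydrolyse it. The widely expressed Rhoa (0.40, SE 0.05) and Rac1 (0.32, SE 0.05) rose, as did Rhoq, from 58.3, 68.5 and 73.7 CPM to 117, 133 and 113 CPM (0.87, SE 0.09). Rac3, a form of neurons, fell from 187, 208 and 206 CPM to 128, 135 and 140.0 CPM (−0.56, SE 0.06). The kinases that they drive split, Pak2 falling from 52.5, 55.2 and 55.1 CPM to 25.4, 23.9 and 24.9 CPM (−1.12, SE 0.07) and Pak6 rising from 281, 267 and 281 CPM to 466, 459 and 502 CPM (0.80, SE 0.05).

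Among activating proteins, genes again moved both ways. Arhgap35, also called p190A, fell from 235, 249.5 and 264 CPM to 123, 114 and 117 CPM (−1.07, SE 0.06). Fam13b fell (−1.3, SE 0.08), while Arhgap1 (0.58, SE 0.05) and Srgap1, which acts downstream of Robo receptors (0.76, SE 0.07), rose. Actin nucleation, capping and turnover genes were 31 higher and 29 lower of the 104 tested among 111, a balance that turned without scrambled or silencing replicate 2 (32 higher and 42 lower against the empty vector, AAGAGGA in 12 of 29 lower and 1 of 31 higher). Ablim3, which binds actin filaments, fell from 109.7, 101 and 102 CPM to 28.4, 24 and 26.6 CPM (log2FC = −1.97, SE 0.08, adjusted p = 3.7e-09). The neuronal pointed-end cap Tmod2 fell from 559, 592 and 599 CPM to 312, 294 and 279.7 CPM (−0.97, SE 0.05), Evl, of the Ena/VASP family, fell (−1.13, SE 0.07) and the formin Daam1 fell (−1.11, SE 0.07). Gsn, gelsolin, which severs filaments, rose from 10.6, 9.39 and 13.2 CPM to 27.1, 30.4 and 28.5 CPM (1.39, SE 0.12). The crosslinker Actn4 (0.70, SE 0.05) and the Arp2/3 subunit Arpc5, from 289, 301 and 294 CPM to 478, 517 and 474 CPM (0.75, SE 0.05), rose too. Actb (0.04, SE 0.05, adjusted p = 0.52) and Cfl1, cofilin (−0.04, SE 0.04, adjusted p = 0.43), both abundant, overlapped between the groups, although Actb passed with library size scaling (0.14).

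Myosins were 11 lower and 5 higher of the 29 tested among 35 (AAGAGGA in 1 of 11 lower and 0 of 5 higher), and without silencing replicate 3 3 were higher. Myo9a, a motor with a GTPase-activating domain, fell from 87.6, 85.6 and 84.4 CPM to 44.1, 39.5 and 39.8 CPM (−1.05, SE 0.06). The nonmuscle heavy chain Myh10 fell (−0.56, SE 0.06) and Myo1e rose (1.31, SE 0.21). Septins, GTPases that form filaments at membranes and at the base of spines, were 4 lower and 1 higher of the 10 tested among 13 (AAGAGGA in 0 of 4 lower and 0 of 1 higher). The higher septins numbered 0 without scrambled replicate 2 and after the GC and length correction, and 2 without silencing replicate 1 and with library size scaling. Sept7, a subunit of most septin filaments, fell from 344, 329 and 336 CPM to 149, 135 and 141 CPM (−1.24, SE 0.06). Sept6 fell from 192, 194 and 190.2 CPM to 89.5, 84.1 and 93.7 CPM (−1.10, SE 0.06) and Sept11 fell (−0.82, SE 0.09). Spectrins and the membrane skeleton were 14 lower and 5 higher of the 32 tested among 33 (AAGAGGA in 5 of 14 lower and 2 of 5 higher). Dmtn, dematin, which joins spectrin to actin, fell from 203, 223 and 214 CPM to 54.6, 53.7 and 62.1 CPM (log2FC = −1.90, SE 0.07, adjusted p = 2.4e-09). Nf2, merlin, fell from 198, 201 and 208 CPM to 90.5, 90.2 and 100.2 CPM (−1.10, SE 0.06). Ank1, an ankyrin, fell (−1.31, SE 0.09), while Epb41l5 rose (0.74, SE 0.10).

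Membrane traffic families were mixed, and some classes within them leaned in opposite directions. Rab GTPases mark each compartment and recruit the tethers and motors for it. Rab genes and their regulators together were 39 lower and 30 higher of the 107 tested among 113, turned to 31 lower and 40 higher by library size scaling, but the GTPases were 22 higher and 14 lower of 51 and their regulators 25 lower and 8 higher of 56 (AAGAGGA in 11 of 39 lower and 5 of 30 higher). The near relatives Rab8a and Rab8b, which direct traffic to the surface and to cilia, moved apart. Rab8a fell from 62.3, 62 and 61 CPM to 21.5, 21.3 and 21.5 CPM (log2FC = −1.51, SE 0.07, adjusted p = 9.8e-09) and Rab8b rose from 23.1, 24.7 and 21.1 CPM to 43.6, 42.4 and 39.6 CPM (0.88, SE 0.08). The regulators Rabep1, an effector of Rab5, from 166, 163 and 165 CPM to 62.8, 57.8 and 64.4 CPM (−1.41, SE 0.06), and Dennd5a (−1.3, SE 0.07) fell, and Rab40c rose (0.90, SE 0.06). ARF GTPases and their regulators were 22 higher and 16 lower of the 53 tested among 57 (AAGAGGA in 4 of 16 lower and 0 of 22 higher). Arf2 (0.64, SE 0.05) and the exchange factor Cyth2, from 100.5, 97.2 and 97.6 CPM to 166, 181 and 163 CPM (0.80, SE 0.06), rose, and the activating protein Acap3 fell (−0.73, SE 0.07).

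Between the endoplasmic reticulum and the Golgi, COPII coats carry cargo forward, COPI coats carry it back, and tethers hold the Golgi stack. The whole list was 26 higher and 22 lower of the 70 tested among 71. COPII genes were 16 higher and 2 lower of 29, COPI genes 2 and 3 of 9, and tethers 8 higher and 17 lower of 32. Kdelr3, a receptor that returns resident proteins to the reticulum, rose from 6.38, 2.65 and 3.52 CPM to 26.4, 22.6 and 24.3 CPM (log2FC = 2.55, SE 0.25, adjusted p = 6.6e-05). The COPI subunit Copa rose (0.46, SE 0.05) and Trappc5 rose (0.88, SE 0.06). The giant golgins Golgb1, giantin, from 88.4, 86.8 and 82 CPM to 37.9, 36.6 and 38.3 CPM (−1.18, SE 0.06), and Golga4 (−1.22, SE 0.07) fell. AAGAGGA was in 1 of 22 lower and 2 of 26 higher members.

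Retromer, sorting nexins and endosomal adaptors were 19 lower and 18 higher of 66, 13 and 20 with library size scaling (23 higher and 21 lower against the empty vector, AAGAGGA in 4 of 19 lower and 2 of 18 higher). Snx17, which retrieves integrins and LDL receptor relatives from endosomes, fell from 122, 119 and 118 CPM to 22.3, 21.1 and 28.7 CPM (log2FC = −2.30, SE 0.10, adjusted p = 1.8e-08). Snx7 fell from 109, 95.9 and 101 CPM to 28.8, 25.2 and 32.5 CPM (−1.81, SE 0.09). Washc2, of the complex that builds actin on endosomes, fell (−1.46, SE 0.06), while Snx8 rose from 96.3, 93.8 and 91.5 CPM to 183, 194 and 194 CPM (1.03, SE 0.05). ESCRT genes, which bud vesicles into multivesicular bodies, were 12 lower and 10 higher of the 29 tested among 30, 9 and 12 with library size scaling (12 higher and 9 lower against the empty vector, AAGAGGA in 2 of 12 lower and 0 of 10 higher). Of the filament-forming ESCRT-III subunits, Chmp3 fell from 90.1, 89.3 and 90.4 CPM to 24.1, 21.7 and 24.3 CPM (log2FC = −1.93, SE 0.07, adjusted p = 2e-09) and Chmp4b fell from 171, 159 and 171 CPM to 72.4, 82.5 and 90.1 CPM (−1.02, SE 0.07). Chmp2b rose from 81.4, 77.2 and 77.9 CPM to 136, 142 and 135 CPM (0.81, SE 0.05). The early subunit Tsg101 fell (−0.72, SE 0.07). Exocyst, HOPS, CORVET and GARP tethers were 14 lower and 9 higher of 34, 10 and 11 with library size scaling (AAGAGGA in 4 of 14 lower and 2 of 9 higher). Exoc6, of the exocyst, fell from 52.4, 53.8 and 54.9 CPM to 14.2, 12.5 and 14.8 CPM (−1.94, SE 0.08). Rbsn, an effector of early endosomes, fell (−1.22, SE 0.08) and Vps51 rose (0.88, SE 0.11).

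Genes of protein entry into the endoplasmic reticulum, N-glycosylation and GPI anchors were 36 higher and 24 lower of the 107 tested among 108 (AAGAGGA in 7 of 24 lower and 6 of 36 higher), with GPI anchor genes 11 higher and 4 lower of 24. With library size scaling the list was 47 higher and 13 lower. Ssr3, of the translocon, fell from 161, 158 and 154 CPM to 52.1, 54.1 and 61.1 CPM (−1.49, SE 0.07). Alg10b, which adds a glucose to the glycan precursor, fell from 28.4, 23.4 and 27.4 CPM to 7.26, 4.6 and 4.88 CPM (−2.24, SE 0.16). St8sia4, which builds the polysialic acid of the adhesion molecule NCAM, fell from 44.4, 36.7 and 33.2 CPM to 11, 7.96 and 9.17 CPM (−2.01, SE 0.14). Pigs, which attaches GPI anchors (0.88, SE 0.06), and the sialyltransferase St3gal3 (0.83, SE 0.06) rose. Palmitoylation genes, whose enzymes add or remove lipid on cysteines, were 12 higher and 6 lower of the 29 tested among 30 (AAGAGGA in 3 of 6 lower and 1 of 12 higher). Zdhhc17, which binds huntingtin, fell (−0.75, SE 0.07), and Zdhhc18, from 28.9, 30.0 and 32.1 CPM to 56.8, 63 and 62.2 CPM (1.01, SE 0.07), and the thioesterase Lypla1 (0.93, SE 0.08) rose.

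Each metabolic family held more higher than lower members, though mitochondrial import, dynamics and carrier genes were near even. Neurons burn glucose through glycolysis and the TCA cycle and keep little glycogen, while nucleotide synthesis serves RNA turnover and, in dividing cells, DNA replication. Glycolysis, pentose phosphate and glycogen genes were 22 higher and 12 lower of the 49 tested among 50 (AAGAGGA in 3 of 12 lower and 1 of 22 higher), and glycogen genes alone 8 and 2 of 12. Gys1, glycogen synthase, rose from 57.3, 45.6 and 45.9 CPM to 142, 135 and 129.9 CPM (log2FC = 1.46, SE 0.09, adjusted p = 1.8e-07). Phka1, a subunit of the kinase that starts glycogen breakdown, rose from 14.4, 15.3 and 17.4 CPM to 35.6, 40.2 and 36.1 CPM (1.26, SE 0.09). Pygb, the brain glycogen phosphorylase, fell from 295, 309.9 and 319 CPM to 146, 151 and 167 CPM (−0.98, SE 0.06). Pgm2l1, which makes a regulator of glucose use, fell (−1.15, SE 0.10). Ldhb, a lactate dehydrogenase, rose from 687, 651 and 654 CPM to 882, 837 and 841 CPM (0.37, SE 0.05).

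TCA cycle and pyruvate genes were 16 higher and 9 lower of 41 (AAGAGGA in 1 of 9 lower and 0 of 16 higher). The kinases Pdk2, from 36.3, 39.7 and 37.3 CPM to 68.8, 69.4 and 64.7 CPM (0.85, SE 0.07), and Pdk3 (0.84, SE 0.07), which inhibit pyruvate dehydrogenase, rose, as did the aspartate aminotransferase Got1 (0.40, SE 0.06). Acly, which makes cytosolic acetyl-CoA, fell from 534, 516 and 499 CPM to 357, 349.8 and 300.3 CPM (−0.61, SE 0.07). Mitochondrial import, dynamics and carrier genes were 33 higher and 29 lower of 97, a balance that turned without scrambled replicate 2 or 3 (AAGAGGA in 5 of 29 lower and 5 of 33 higher). Tomm34, a cytosolic helper of import, rose from 49.1, 45.1 and 44.8 CPM to 131, 131 and 118 CPM (1.47, SE 0.07). The dicarboxylate carrier Slc25a10 rose from 31.5, 28.1 and 29.5 CPM to 73.3, 77 and 79.7 CPM (1.38, SE 0.07). Opa1, of inner membrane fusion, fell from 174, 176 and 178 CPM to 92.2, 87.2 and 93.1 CPM (−0.94, SE 0.05). So did Fis1, of the outer membrane fission machinery, from 132, 131 and 128 CPM to 65.3, 61.3 and 69.9 CPM (−0.98, SE 0.06), so genes of fusion and of fission were both lower. Micu3, the neuronal regulator of the calcium uniporter, fell (−1.46, SE 0.07).

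NRF2, glutathione and antioxidant genes were 22 higher and 12 lower of 72 (AAGAGGA in 2 of 12 lower and 6 of 22 higher). Without scrambled replicate 2 or silencing replicate 2 the lower members numbered 6, the count also given by library size scaling. Msrb1, which repairs oxidised methionine, rose from 7.8, 7.83 and 9.92 CPM to 31.1, 33.1 and 27.8 CPM (1.86, SE 0.12). Txnip, which inhibits thioredoxin, rose from 4.9, 6.44 and 5.8 CPM to 12.5, 15.4 and 11.2 CPM (1.21, SE 0.16, 3.26 against the empty vector). The mitochondrial thioredoxin reductase Txnrd2 fell from 23.6, 23.5 and 24.3 CPM to 9.99, 7.9 and 8.32 CPM (−1.44, SE 0.11). The transcription factor Nfe2l1 fell (−0.82, SE 0.06). Slc7a11, the cystine carrier, fell against the scrambled hairpin from 52, 52.4 and 55.5 CPM to 32.1, 37.5 and 37.9 CPM (−0.56, SE 0.08, −0.27 after the GC and length correction) but was higher against the empty vector (1.54), so its direction depends on the control. Hypoxia-inducible factor genes were 15 higher and 6 lower of the 31 tested among 33, with targets 11 higher and 3 lower of 18 (AAGAGGA in 3 of 6 lower and 4 of 15 higher). Egln3, a prolyl hydroxylase that acts on the factor and is its target, rose from 3.81, 5.24 and 4.78 CPM to 11, 15.4 and 11.4 CPM (1.46, SE 0.17, 2.61 against the empty vector), while Egln1 fell (−0.67, SE 0.07). The targets Bnip3 (0.50, SE 0.06), Plod2 (1.17, SE 0.13) and Higd1a, from 167, 164 and 164 CPM to 274, 257 and 246 CPM (0.66, SE 0.06), rose. The target Ndrg1 fell from 39.7, 39.6 and 37 CPM to 17.6, 16.8 and 16.4 CPM (−1.18, SE 0.08).

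Lipid metabolism genes were 34 higher and 26 lower of the 118 tested among 121 (AAGAGGA in 10 of 26 lower and 3 of 34 higher), and fatty acid oxidation stood at 12 higher and 2 lower of 26. Fatty acid synthesis genes went the other way, 4 higher and 5 lower of 23, as did phospholipid genes, 8 and 11 of 40. With library size scaling the list was 44 higher and 16 lower. Acadvl, which starts the oxidation of very long chains, rose from 47.6, 50.8 and 49.2 CPM to 85.5, 90.5 and 82.4 CPM (0.82, SE 0.06), as did Cpt1c, the brain form of the carnitine transferase (0.76, SE 0.06). Selenoi, which makes phosphatidylethanolamine, fell from 132, 120.4 and 114 CPM to 59.8, 48.9 and 57.4 CPM (−1.13, SE 0.08). The sphingomyelinase Smpd3 fell (−0.67, SE 0.05). Peroxisome genes were 14 higher and 4 lower of 32 (AAGAGGA in 0 of 4 lower and 5 of 14 higher). The oxidase Acox3 (0.97, SE 0.08) rose. The lower genes included Gnpat, the first enzyme of ether lipid synthesis, from 76.5, 77.4 and 78.2 CPM to 36.2, 35.7 and 37.7 CPM (−1.07, SE 0.06), and Pex14, of the import machinery (−0.52, SE 0.08).

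Nucleotide, one-carbon and polyamine genes were 34 higher and 11 lower of 70 (median 0.249, 38 and 16 against the empty vector), with purine and pyrimidine synthesis at 20 higher and 2 lower of 33. Rrm1 and Rrm2, the subunits of ribonucleotide reductase, rose from 28.8, 33.8 and 35.4 CPM to 59.4, 59.4 and 58 CPM (0.86, SE 0.08) and from 7.4, 10.6 and 11.8 CPM to 29.1, 33.3 and 29.4 CPM (log2FC = 1.64, SE 0.14, adjusted p = 3.7e-06). Paics, of purine synthesis (0.53, SE 0.05), Umps, of pyrimidine synthesis (0.75, SE 0.08), Aprt, of adenine salvage (0.74, SE 0.07), and Phgdh, of serine synthesis, from 46.1, 56.1 and 62.4 CPM to 91.9, 104 and 105 CPM (0.89, SE 0.10), also rose. The lower genes included the mitochondrial folate enzyme Mthfd2, from 39.2, 27.8 and 25 CPM to 9.8, 10.1 and 10.3 CPM (−1.6, SE 0.16), and Adss, which makes the precursor of AMP, from 73.7, 78.6 and 76.5 CPM to 32.2, 32.1 and 32.4 CPM (−1.23, SE 0.06). AAGAGGA was in 6 of 11 lower members, these 2 among them, and in 3 of 34 higher members. Markers of radial glia and progenitors, not all of them particular to division, summed to 748 to 1434 CPM in silencing and 710 to 1228 CPM in scrambled libraries. Of the 8 tested, 1 was called higher (3 without silencing replicate 1, 5 with a replicate block, which also called 1 lower). The part of such cells in the rise of Rrm1 and Rrm2 was not tested.

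Genes of the matrix and of attachment to it were more often higher than lower. Integrins are paired receptors for matrix proteins, and inside the cell they connect to actin through talin, kindlin, paxillin and the complex of ILK, PINCH and parvin. Of the 34 integrin genes tested among 43, 18 rose and 1 fell (median 0.389), with 20 and 0 under library size scaling and 20 higher and 5 lower against the empty vector. Itgb1, the shared beta subunit of most matrix receptors, rose from 109, 102 and 108 CPM to 207, 209 and 183 CPM (log2FC = 0.92, SE 0.06, adjusted p = 2.5e-07). Its partner Itga5, which forms the fibronectin receptor with it, rose from 1.48, 1.2 and 1.31 CPM to 3.51, 4.71 and 4.67 CPM (1.70, SE 0.22). Lims1, which encodes PINCH, rose from 33, 32.6 and 32.7 CPM to 70.9, 67.9 and 63.7 CPM (1.05, SE 0.07), with its partner Ilk (0.39, SE 0.05). Of the focal adhesion proteins, Zyx rose from 50.8, 41.9 and 41.5 CPM to 87.3, 85.1 and 85.5 CPM (0.95, SE 0.08). Pxn, paxillin, rose from 10.9, 11.9 and 12.6 CPM to 23.2, 24.1 and 22.7 CPM (0.99, SE 0.09). All silenced libraries of these genes lay above all scrambled libraries. The lower gene was Itga3 (log2FC = −0.32, SE 0.09, adjusted p = 0.012), which carries AAGAGGA and did not pass with library size scaling (−0.22) or without scrambled replicate 3 (−0.26), and the run was in 0 of the 18 higher members. Without scrambled or silencing replicate 1 the lower integrin genes numbered 2.

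Collagens, laminins and basement membrane genes were 25 higher and 6 lower of the 78 tested among 92 (median 0.276), with laminins 5 higher and 0 lower of 10 and collagens 9 and 2 of 32. Against the empty vector the list was 26 higher and 16 lower. Plod1, which hydroxylates lysines of collagen, rose from 10.4, 11.7 and 9.62 CPM to 47.1, 53.9 and 42.9 CPM (log2FC = 2.19, SE 0.11, adjusted p = 1.9e-08). Lamb2 rose from 6.55, 10.4 and 9.44 CPM to 25.2, 38.9 and 32 CPM (1.88, SE 0.20) and Lamc1 rose from 27.2, 29.8 and 30.2 CPM to 43.7, 45.5 and 46.8 CPM (0.65, SE 0.07), which are laminin chains of basement membranes. Hspg2, perlecan (1.51, SE 0.19), Col4a2, of basement membrane collagen, from 23.7, 30.8 and 31.1 CPM to 47.9, 56.9 and 56.4 CPM (0.93, SE 0.11), and Col14a1, from 5.98, 7.95 and 6.63 CPM to 20.3, 24.5 and 19.7 CPM (1.66, SE 0.13), rose as well. Lower members included Cyr61, a matricellular protein, from 17.1, 18.1 and 18.8 CPM to 4.24, 3.68 and 4.93 CPM (−2.06, SE 0.13), Postn (−1.41, SE 0.21) and Spock1, a proteoglycan of neurons, from 166, 164 and 161 CPM to 83.9, 75.4 and 79.7 CPM (−1.03, SE 0.06). AAGAGGA was in 2 of 6 lower and 3 of 25 higher members. Beside these rises, summed markers were also higher for mural cells (25.2 to 35.1 against 16.3 to 22.1 CPM) and oligodendrocytes (81.3 to 89.5 against 31.0 to 42.2 CPM). In the empty vector libraries the mural sums, 18.38 to 25.55 CPM, overlapped those of silencing. The empty vector sums of oligodendrocytes (45.2 to 46.2 CPM) and of their precursors (52.6 to 83.6 CPM) lay below those of silencing. Summed markers of oligodendrocyte precursors overlapped as ranges between the groups (90.5 to 199 against 62.5 to 111 CPM). In replicate order they were at 90.5, 181 and 199 CPM in silencing and 62.5, 102 and 111 CPM in scrambled libraries, higher at each number. Of the precursor markers, 3 of 5 were called higher, 1 without silencing replicate 2 and 5 with a replicate block. Cspg4 is in both the mural and the precursor list. Fibroblast markers were at 9.69 to 13.7 and 9.74 to 12.6 CPM with 0 of 4 called. The part of those cells in the matrix and integrin results was not tested.

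Perineuronal matrix and protease genes were 23 higher and 12 lower of the 68 tested among 77 (AAGAGGA in 5 of 12 lower and 3 of 23 higher). Plau, urokinase, a secreted protease, rose from about 1 CPM, from 0.797, 1.2 and 0.538 CPM to 5.99, 6.12 and 4.51 CPM (2.71, SE 0.27). Chpf, which extends chondroitin sulphate (0.93, SE 0.10), and the protease inhibitor Timp3, from 27, 36.8 and 38.8 CPM to 62.3, 80.6 and 69.5 CPM (1.06, SE 0.14), rose. The catalytically inactive Adam22, a neuronal receptor for LGI1, fell from 193, 199 and 193 CPM to 79.3, 72.9 and 66.8 CPM (−1.41, SE 0.07). So did the protease Adam19 (−1.34, SE 0.10) and the neural proteoglycan Cspg5, from 348, 419 and 409 CPM to 161, 180.4 and 215 CPM (−1.07, SE 0.11).

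Adhesion between cells was balanced for cadherins, catenins and nectins, with 16 higher and 16 lower of the 54 tested among 64 (AAGAGGA in 6 of 16 lower and 3 of 16 higher), although the cadherins alone were 10 lower and 4 higher of 25. Pkp4, a catenin of junctions, fell from 294, 282 and 289 CPM to 89.8, 79.8 and 87 CPM (log2FC = −1.74, SE 0.06, adjusted p = 1.7e-09). Celsr2, a cadherin of planar polarity with 2 copies of AAGAGGA, fell from 121, 135 and 146 CPM to 36.9, 41.1 and 38 CPM (−1.78, SE 0.08). The neuronal catenin Ctnna2 fell from 254, 248 and 252 CPM to 157, 156 and 159 CPM (−0.66, SE 0.05). Cdh24 (1.09, SE 0.11) and Jup, plakoglobin (0.63, SE 0.11), rose. Immunoglobulin superfamily adhesion genes were 18 lower and 8 higher of the 45 tested among 47, 15 and 14 with library size scaling and 17 and 16 after the GC and length correction (AAGAGGA in 4 of 18 lower and 3 of 8 higher). In the IgLON family of GPI-anchored proteins, Iglon5 fell from 76.2, 74.6 and 71 CPM to 27.8, 27.2 and 30.0 CPM (−1.37, SE 0.07) and Negr1 fell from 284, 317 and 317 CPM to 197, 179.9 and 170.2 CPM (−0.74, SE 0.07). Lsamp of the same family rose from 136, 131 and 136 CPM to 229.7, 221 and 225 CPM (0.76, SE 0.05). Cntn1, contactin, fell from 448, 453 and 463 CPM to 297, 272 and 269 CPM (−0.69, SE 0.05).

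Genes of cell death, inflammation and DNA repair moved in both directions. Caspases, their activators and their inhibitors were 9 higher and 9 lower of the 32 tested among 38 (AAGAGGA in 2 of 9 lower and 2 of 9 higher). The list was 10 higher and 4 lower with library size scaling, 11 and 5 after the GC and length correction, and 7 and 5 without silencing replicate 2. Apaf1, the scaffold that activates caspase 9, rose from 28, 34.1 and 33.3 CPM to 48.6, 49.8 and 43.7 CPM (0.58, SE 0.09), and against the empty vector it was at 0.15 and not called. Cflar, which blocks caspase 8, rose (0.70, SE 0.11). NF-kB and TNF receptor genes were 17 higher and 7 lower of the 51 tested among 67 (AAGAGGA in 1 of 7 lower and 4 of 17 higher). Rela, the main activating subunit of NF-kB, rose from 24.6, 26.4 and 26.2 CPM to 52.2, 49.8 and 51.4 CPM (log2FC = 1.0, SE 0.07, adjusted p = 2.4e-07). Tnfrsf12a, the receptor for TWEAK, rose from 15.4, 13.2 and 10.8 CPM to 33.4, 34.6 and 36.7 CPM (1.42, SE 0.12), and the adaptor Traf2 rose (1.33, SE 0.15). The inhibitor Tnip1 fell from 25.5, 25.8 and 25.8 CPM to 12.7, 14.7 and 13.8 CPM (−0.89, SE 0.09). DNA repair genes were 30 lower and 21 higher of the 105 tested among 108, 23 and 30 with library size scaling, and nucleotide excision and mismatch repair alone 10 lower and 3 higher of 20 (AAGAGGA in 6 of 30 lower and 0 of 21 higher). Ung, which removes uracil from DNA, rose from 2.62, 2.41 and 2.27 CPM to 8.47, 8.99 and 10.1 CPM (1.93, SE 0.16). The flap nuclease Fen1, from 12.5, 14.8 and 13.1 CPM to 26.4, 28.4 and 30.0 CPM (1.09, SE 0.09), and Mad2l2 (0.97, SE 0.09) rose as well. Trp53bp1, of double-strand break repair, fell from 286, 264 and 280.3 CPM to 173, 158 and 162 CPM (−0.74, SE 0.06), as did the mismatch gene Mlh3 (−1.24, SE 0.10).

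Cilia and intraflagellar transport genes were 20 lower and 11 higher of 67, even at 17 and 17 with library size scaling and 18 and 17 after the GC and length correction (AAGAGGA in 3 of 20 lower and 2 of 11 higher). Ahi1, of the ciliary gate, fell from 232, 229.5 and 231 CPM to 132, 117 and 124 CPM (−0.88, SE 0.06), as did the BBSome subunit Bbs2 (−1.45, SE 0.13) and the transition zone gene Rpgrip1l (−1.06, SE 0.10). Ift27 rose (0.58, SE 0.08). Nuclear receptors and their coregulators were even, 13 higher and 13 lower of the 47 tested among 56 (AAGAGGA in 3 of 13 lower and 1 of 13 higher). Nr1d2, a haem-binding repressor, fell from 20.9, 20.7 and 19.2 CPM to 6.05, 6.87 and 5.88 CPM (−1.68, SE 0.11), and Nr2f1, a patterning gene of the cortex (−0.55, SE 0.06), and the coactivator Ncoa7 (−0.98, SE 0.08) fell. Ppard (0.72, SE 0.09) and Esrra (0.55, SE 0.09), which act on genes of oxidative metabolism, rose. KLF, SP and SOX factors were 10 lower and 7 higher of the 35 tested among 43, 7 and 11 with library size scaling (AAGAGGA in 4 of 10 lower and 1 of 7 higher). The higher count was 13 without silencing replicate 1 and 4 without silencing replicate 2. Sox12 fell from 46.9, 49.7 and 50.1 CPM to 19.9, 19.2 and 18.4 CPM (−1.34, SE 0.07). Klf6 (−0.97, SE 0.07) and Klf9 (−0.99, SE 0.10) fell as well, while Sp8, a gene of interneuron lineages, rose from 16.1, 12.5 and 14.5 CPM to 38.6, 31.7 and 27.1 CPM (1.19, SE 0.14).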

How the data were processed

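RNA-seq was measured in 12 libraries of cultured mouse EC cells, of which the 3 silencing and 3 scrambled libraries were compared here, with the 3 empty vector libraries as a further control. The deposited table holds estimated counts per gene for each library, not normalized, which the authors made from reads trimmed and aligned to mm10. The study's methods name fastp and STAR for these steps, and the submitters' processing notes name Salmon and DESeq2, so which tool gave the deposited values is not settled. The strand setting and the annotation behind the counts are not given in the sources used here, and antisense or overlapping genes may therefore share reads.

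Estimated counts, 38.097% of them not whole, were rounded, and the 9 genes without a symbol were kept in the fit and not named. Genes with low counts were removed with filterByExpr, libraries were scaled by TMM, and each comparison was fitted on its own 6 libraries with edgeR 4.0.16 (glmQLFit with robust dispersions, glmQLFTest, R 4.3.3). Calls were made where the adjusted p (Benjamini and Hochberg, over every gene fitted) lay below 0.05. CPM used TMM-scaled library sizes over the 9 libraries. Depth was 15679567 to 18555472 estimated counts per library in the 9 libraries, and p-values cover the spread between libraries. Other settings were DESeq2 1.42.0 (Wald test, and its size factors alone), limma-voom (limma 3.58.1), library size scaling, other filters, all 12 libraries in one fit, offsets for transcript GC content and length, the replicate number as a block, and each library left out. The edgeR step was also run on simulated counts with few genes changed, up and down alike. That run cannot probe the scaling or the split into higher and lower genes, since most genes were called here.

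The 77 families and 11 marker lists were written by hand, and they, the run AAGAGGA and the genes named were chosen with earlier results of these data known, so no set test was made. Of the symbols listed, 8 are not used here because they did not match the table. Named genes are Dek, per list up to 6 members in each direction with the smallest adjusted p, up to 4 members that did not pass with the highest mean CPM, any member of a list or role of at most 25 genes, the 20 largest rises and the 20 largest falls (mean of at least 5 CPM, groups not overlapping), and any marker. The text names a selection of them, and some genes and families are not reported here. The 3′ UTRs and coordinates are those of GENCODE transcripts on GRCm38, with the longest 3′ UTR of a gene taken. Both heptamers were counted on the sense strand, overlaps allowed.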

Additional observations from a re-analysis of the deposited data

How the results depend on the processing

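Counts of called genes stayed within 1.5 times of the values given, 7790 against the scrambled hairpin and 9638 against the empty vector, in all 16 alternative fits of each. A call that also needed a log2FC beyond 1 left 1499 and 2425 genes. With 1 library left out the counts ran from 6723 to 7856 and from 8613 to 9853. The split moved more than the count: against the scrambled hairpin it was 4793 higher and 3210 lower with library size scaling (median log2FC of all genes 0.0976), 4325 and 3683 after the GC and length correction (median 0.0483), and 3437 and 3644 in the DESeq2 Wald test. The labels do not say whether libraries with the same replicate number belong together. Deviations of same-numbered silencing and scrambled libraries correlated at 0.0832 to 0.324 (4 of 6 libraries best with their own number). Those of same-numbered silencing and empty vector libraries correlated at −0.229 to −0.0576 (0 of 6). With the number as a block 8620 genes (4208 higher, 4412 lower) and 9042 genes were called, and with the block and the GC and length correction 4824 and 4005 against the scrambled hairpin. Of the families, the block moved the higher Notch genes from 9 to 15 and the lower RGS genes from 1 to 4. It moved the lower basement membrane genes from 6 to 10. Of the markers, it moved the higher progenitor genes from 1 to 5 (1 lower) and the higher precursor genes from 3 to 5 (0 lower). Of the 154 counts of higher or lower members in the 77 families, 29 moved by over 1.5 times with library size scaling, 18 with the GC and length correction, 26 with that correction and the block, and at most 10 in any other fit. With a log2FC beyond 1, 149 of the 154 were smaller by over 1.5 times. Of 355 named genes 347 were called, and 345 of these kept direction and call in every alternative fit that tested them, the exceptions being Itga3 and Dnmt3b. Of the 345, 6 were below the filter of 5 CPM and so were tested in 15 of the 16 fits. Of the 8 that were not called, 5 passed in some fit. The cause of these moves was not tested. At this depth genes near 1 CPM, such as Gdf5, Plau, Slc22a18 and Dnmt3b, rest on few reads per library.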
